A study of Mus musculus with 13 samples.

Results

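Grpr encodes the receptor for gastrin-releasing peptide, and it was examined here together with the other 4 genes of the mammalian bombesin family. Grp and Nmb encode the ligands gastrin-releasing peptide and neuromedin B, Nmbr encodes the neuromedin B receptor, and Brs3 encodes the related bombesin receptor subtype 3, for which no natural ligand is established. Every H3K27ac peak that overlapped a gene body, or the 100 kb on either side of it, was taken from 9 deposited peak lists. This gave 137 peaks out of 256200, and 26 elements when overlapping peaks of different lists were joined. The 5 genes are among 21938 protein-coding genes of the annotation. Grpr was chosen by its measured peaks in these lists, so its values are given as a description with no test.

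The ligands are cut from longer precursors, amidated at the C terminus and secreted. Their receptors span the membrane and act mainly through G proteins of the Gq class, which activate phospholipase C-β and release calcium through inositol trisphosphate receptors, until receptor kinases and arrestins shut the signal down. Gastrin-releasing peptide is best known from gut, lung and nerve cells and as a growth factor of some tumours. H3K27ac is acetylation of lysine 27 on histone H3, a mark of active promoters and enhancers, and ChIP–seq maps it by sequencing the DNA that an antibody against it brings down.

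The 9 melanoma lines came from tumours of mice carrying Tyr::NRAS Q61K, heterozygous for Cdkn2a and with floxed Cdh1, the E-cadherin gene. These alleles were shared by all groups. Tyr::CreA, a Cre active in cells of the melanocyte lineage, was present in the mice of the ΔEcad lines and absent from those of the Ecad lines. The groups were male Ecad (Ma_1007 and Ma_1181), female Ecad (Ma_1014 and Ma_1039), male ΔEcad (Ma_1062 and Ma_1456) and female ΔEcad (Ma_1057, Ma_1064 and Ma_1069). All were cultured untreated, the age of the mice is not given in the labels, and each line is 1 tumour-derived culture with 1 list. The comparison asks which lines mark the receptor gene, and whether the genes of its ligands and of the sister receptors are marked as well.

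The lists held 20741 to 41663 peaks, and a promoter was called (a peak within 1 kb of the start of any annotated transcript) for 25.3% to 48.6% of protein-coding genes. The share was 25.3% to 33.4% in the 3 female ΔEcad lists and 38.4% to 48.6% in the other 6, and its part in the results below was not tested. No Cdh1 promoter was called in any list, and peaks covered 1.66 to 3.16 kb of the Cdh1 body in female ΔEcad lines and 4.45 to 8.79 kb in the others, which does not check the deletion. The Xist promoter was called in 5 of 5 female lists and 0 of 4 male lists, and 4 of 4 Y-linked promoters (Kdm5d, Uty, Ddx3y and Eif2s3y) in each male list and in 0 of 5 female lists. Of 7 melanocyte lineage promoters, 6 or 7 were called in every list. Sox10, Mitf, Dct, Tyr, Pmel and Mlana were called in all 9 and Tyrp1 in 6. None of the 11 leukocyte, endothelial, epithelial and neuroendocrine promoters examined was called in any list. A peak list cannot tell a mark carried by fewer cells from less of the mark in each cell.

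The sequences at or near the starts of these loci are shown first. They differ in CG dinucleotides, the sites of DNA methylation, which are in capitals, and a link to the marks was not tested. They were taken from RefSeq on build GRCm38.p6, in the direction of transcription of the gene named. The promoter windows run from 250 bases before to 50 bases after the RefSeq start, and 4 of the 5 genes matched the promoter table, with Grp as the other gene. For Grpr the start window is chrX:163549687-163549986 (minus strand), which lies inside the peak of each female ΔEcad line. The start windows of Nmb, chr7:80905013-80905312 (minus strand), of Nmbr, chr10:14759697-14759996 (plus strand), and of Brs3, chrX:57042824-57043123 (plus strand), held no peak in any list. The last 2 windows belong to neighbours whose promoters were marked. They are the Vta1 start, chr10:14705440-14705739 (minus strand), and the summits at Htatsf1, chrX:57053257-57053556 (plus strand).
Grpr start: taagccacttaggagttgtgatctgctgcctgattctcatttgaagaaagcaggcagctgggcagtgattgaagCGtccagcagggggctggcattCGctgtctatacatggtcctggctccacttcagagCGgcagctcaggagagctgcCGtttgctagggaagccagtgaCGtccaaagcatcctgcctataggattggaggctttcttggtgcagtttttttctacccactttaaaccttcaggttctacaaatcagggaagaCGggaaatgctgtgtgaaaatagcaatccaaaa
Nmb start: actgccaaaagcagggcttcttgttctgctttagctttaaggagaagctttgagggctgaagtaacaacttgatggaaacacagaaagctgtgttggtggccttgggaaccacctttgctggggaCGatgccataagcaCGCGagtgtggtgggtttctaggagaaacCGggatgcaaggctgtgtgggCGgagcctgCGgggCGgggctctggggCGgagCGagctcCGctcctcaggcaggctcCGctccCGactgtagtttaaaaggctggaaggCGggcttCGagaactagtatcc
Nmbr start: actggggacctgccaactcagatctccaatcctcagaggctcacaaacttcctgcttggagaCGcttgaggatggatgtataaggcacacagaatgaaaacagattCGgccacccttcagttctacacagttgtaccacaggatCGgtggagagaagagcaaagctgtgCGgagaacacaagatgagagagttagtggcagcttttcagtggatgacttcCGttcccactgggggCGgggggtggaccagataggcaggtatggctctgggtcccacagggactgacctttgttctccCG
Brs3 start: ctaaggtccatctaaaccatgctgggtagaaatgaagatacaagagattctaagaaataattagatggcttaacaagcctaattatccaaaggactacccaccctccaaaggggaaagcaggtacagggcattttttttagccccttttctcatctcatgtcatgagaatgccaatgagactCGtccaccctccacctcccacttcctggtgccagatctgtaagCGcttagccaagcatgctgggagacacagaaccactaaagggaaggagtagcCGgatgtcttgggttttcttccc
Vta1 start: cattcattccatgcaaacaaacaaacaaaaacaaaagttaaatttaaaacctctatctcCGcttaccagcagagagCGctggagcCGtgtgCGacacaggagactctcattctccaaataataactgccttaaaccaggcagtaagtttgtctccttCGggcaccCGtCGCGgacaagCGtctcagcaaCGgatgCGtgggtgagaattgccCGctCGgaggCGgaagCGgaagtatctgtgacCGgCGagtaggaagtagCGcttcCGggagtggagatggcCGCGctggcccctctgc
Htatsf1 summits: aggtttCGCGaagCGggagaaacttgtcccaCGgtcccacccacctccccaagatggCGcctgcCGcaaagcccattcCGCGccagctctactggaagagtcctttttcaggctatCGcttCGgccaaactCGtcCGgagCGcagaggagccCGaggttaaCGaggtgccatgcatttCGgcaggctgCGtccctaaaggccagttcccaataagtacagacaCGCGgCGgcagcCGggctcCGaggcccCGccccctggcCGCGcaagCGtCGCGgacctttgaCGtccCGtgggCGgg

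The Grpr start window held 6 CG dinucleotides, at percentile 47.9 of 32851 promoters, whose median was 7. Among the start windows without a peak, Brs3 had 3, Nmbr had 7 and Nmb had 14. The neighbours' windows were richer, with 21 at Vta1 and 31 at Htatsf1, the latter at percentile 90.5. The peaks at Vta1 in Ma_1057 and Ma_1064 ended at 14705399 and 14705424, short of the printed window, and Ma_1069 had none. In every list with a peak there, the summit lay outside the Vta1 window. The start windows without a peak held fewer CG than the marked Grpr window in Brs3 and more in Nmbr and Nmb, and a link to the marks was not tested.

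The Grpr gene and its promoter were marked in the 3 female ΔEcad lines alone. The gene lies on the minus strand at chrX:163513904-163549677 and has 3 exons. In Ma_1057 a peak of 7486 bp at chrX:163542997-163550482 covered the start, with a fold enrichment over local background of 23.8. In Ma_1064 the peak over the start was 15982 bp wide, at chrX:163534805-163550786, with a fold enrichment of 50.6. Ma_1069 had the widest one, 19910 bp at chrX:163531056-163550965, with a fold enrichment of 31.6. The order of the lines by width was therefore not their order by height, although Ma_1057 was lowest on both scales.

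Ranked by −log10 q, the significance the peak caller gave each peak, these peaks stood at percentile 88.8 of the list in Ma_1057, 99.3 in Ma_1064 and 96.6 in Ma_1069. By width they ranked 176 of 25628, 22 of 29263 and 9 of 20741, where the median peak was 943, 1019 and 1014 bp wide. On the X chromosome 1 peak of 527 was wider than the Grpr peak in Ma_1057, 1 of 452 in Ma_1064 and 0 of 379 in Ma_1069. The Grpr domain was thus among the widest acetylated stretches of each female ΔEcad line, and on the X chromosome of Ma_1069 it was the widest.

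The summits of the 3 peaks, where the signal was highest, lay within 78 bp of each other. They fell at chrX:163548410 in Ma_1057, chrX:163548439 in Ma_1064 and chrX:163548488 in Ma_1069, which is 1267, 1238 and 1189 bp into the gene. All 3 were in intron 1, past the end of exon 1, which spans chrX:163548882-163549677. The upstream edges were also close together, at 0.805, 1.11 and 1.29 kb before the start. The other edges were not, and reached 6.68 kb into the gene in Ma_1057, 14.9 kb in Ma_1064 and 18.6 kb in Ma_1069. The lines thus shared the promoter edge and the summit of the domain within 483 bp and differed by 11.9 kb in how far it ran into intron 1, and in none did it reach exon 2, which begins 32.3 kb from the start.

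**Figure D1:**
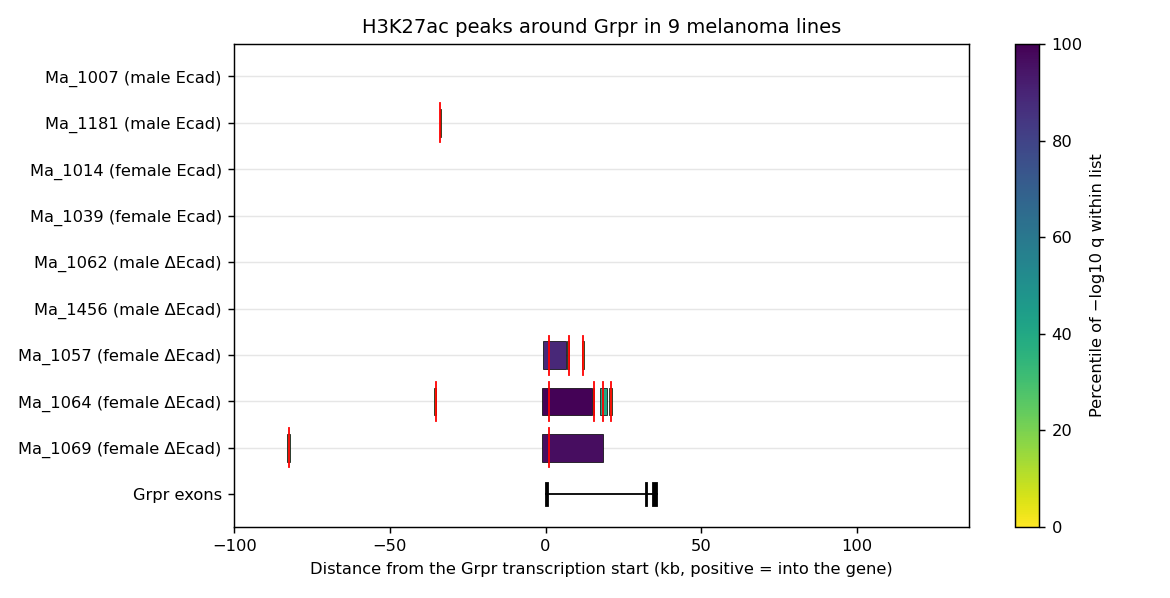
Position of every H3K27ac peak in the Grpr window by line. The horizontal axis is the distance from the Grpr start in kb (positive into the gene), each box is a peak coloured by the percentile of its −log10 q within the list, red ticks are summits, and the bottom row shows the 3 exons. The wide boxes over the start appear in the 3 female ΔEcad lines, and the other lines hold 1 small peak in all, in Ma_1181.

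Smaller peaks flanked the domain. Within intron 1, Ma_1057 had peaks of 647 bp (fold enrichment 4.12, percentile 2.33) and 672 bp (6.82, percentile 28.3), with summits 12.2 and 7.39 kb into the gene. Ma_1064 had peaks of 780, 2540 and 350 bp there, with summits 20.96, 18.34 and 15.50 kb into the gene, the strongest of them at percentile 40.1. All of these but the 780 bp peak of Ma_1064 joined the wide peaks of other lines into 1 element of 21181 bp, chrX:163529785-163550965.

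Upstream of Grpr each peak was seen in 1 line. Ma_1064 had one of 691 bp at chrX:163584842-163585532 (percentile 9.75), and Ma_1069 one of 1193 bp at chrX:163631645-163632837 (percentile 26.2). The single peak of the other 6 lines was 422 bp wide, at chrX:163583175-163583596 in the male Ecad line Ma_1181, 33.9 kb upstream at its summit and at percentile 4.80. It did not overlap the peak of Ma_1064. The closest peak just beyond the window, 5.19 kb outside it in Ma_1064, was 972 bp wide at percentile 64.7, and the farthest peak inside it was that of Ma_1069, 82.0 kb from the gene.

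The Grpr window was otherwise empty. Its only other annotated gene is the processed pseudogene Gm7199, and the nearest protein-coding gene, Rnf138rt1, was 210.5 kb away. From the start of Grpr to the nearest peak of any kind it was 153.3 kb in Ma_1007, 33.5 kb in Ma_1181, 173.2 kb in Ma_1014, 172.8 kb in Ma_1039, 173.1 kb in Ma_1062 and 169.8 kb in Ma_1456. Peaks covered 8.81 kb of the window in Ma_1057, 20.3 kb in Ma_1064, 21.1 kb in Ma_1069, 0.422 kb in Ma_1181 and 0 kb in each of the other 5 lines. The mean was 16.8 ± 6.89 kb (SD, n = 3) in female ΔEcad lines and 0.0703 ± 0.172 kb (SD, n = 6) in the rest. The groups did not overlap, as for 0.383% of genes whose windows were covered more in every female ΔEcad line than in any other. Since the gene was picked for this contrast, nothing is read from that share.

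Consensus motifs were counted on both strands as a description of the 21181 bp element. CTTTGAA or CTTTGAT, the core bound by TCF and LEF factors, occurred 11 times, or 0.519 per kb, against 0.467 per kb over the 59668 merged regions of all lists. The oestrogen receptor half-site GGTCA occurred 40 times (1.89 per kb, against 1.80), and a full element of GGTCA, 3 bases of any kind and TGACC, which contains 2 half-sites, occurred 0 times. For the AP-1 motif TGACTCA the density was 0.236 per kb against 0.242, for the TEAD motif GGAATG 0.472 against 0.575, and for the E-boxes CACGTG or CATGTG, which MITF can bind, 1.51 against 1.06. The E-boxes were the motif whose density stood farthest above that of all regions. The element was 40.3% G and C and held 5.71 CG dinucleotides per kb, against 16.5 per kb over all regions. The densities were not corrected for base composition, so no enrichment of a motif is read from them.

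In the windows printed above, the Grpr start held 0 of these motifs. The Nmbr start held 1 half-site, and those of Nmb and Brs3 held 0 of the motifs. The Vta1 start held 1 half-site and 1 TEAD motif, and the window of the Htatsf1 summits 1 TEAD motif. Among all 32851 promoters 40.5% held a half-site, 8.65% a TCF/LEF motif, 5.20% an AP-1 motif, 20.4% an E-box, 14.7% a TEAD motif and 0.0700% a full oestrogen response element. The letters do not show whether a factor was bound.

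Promoters with the 9-list pattern of Grpr were few. With Grpr, 4 of 21938 genes (0.0182%) had a promoter called in all 3 female ΔEcad lists and in no other. The others were Cyp7a1, the rate-limiting enzyme of bile acid synthesis, at chr4:6265612-6275633, Naip2, which encodes an inflammasome receptor, at chr13:100144063-100202092 (one of several near-identical copies, so its reads may be shared), and Mboat1, which encodes a lysophospholipid acyltransferase, at chr13:30136489-30246717. The likeness is the shared pattern over 9 lists, and the strength of the strongest promoter peak set their order. Its mean percentile over the 3 lists was 97.2 for Cyp7a1, 94.9 for Grpr, 58.4 for Naip2 and 40.5 for Mboat1. The mean width was 14459 bp for Grpr, 5615 bp for Cyp7a1, 1663 bp for Naip2 and 832 bp for Mboat1. Grpr was thus second in strength and first in width among them. The count rose to 21 without the male Ecad line Ma_1007, the longest list, to 18 without the female ΔEcad line Ma_1064 and to 8 without Ma_1069. Grpr had the pattern each time, which was fixed in advance, since leaving out a line cannot break it.

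The ligand gene Grp was not marked at its promoter in any line. It lies on the plus strand at chr18:65872820-65886596, and the distance from its first start to the nearest peak was 13.2 to 68.8 kb over the 9 lists, with a median of 61.9 kb. The single peak that touched the gene was in the male Ecad line Ma_1181, at chr18:65886003-65887407. It was 1405 bp wide with a fold enrichment of 15.2 at percentile 65.1, and it overlapped 0.594 kb at the 3′ end of Grp, while its summit lay past the gene, in an intron of the antisense transcript AC152076.4. No other line had a peak on Grp, whether or not Grpr was marked in it.

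The peaks of the Grp window belonged mostly to Sec11c, which encodes a subunit of the signal peptidase complex. A domain at its promoter, chr18:65800006-65808394, was present in all 9 lists. Its main peak measured 8308 bp in Ma_1057, 6436 bp in Ma_1064 and 8069 bp in Ma_1069, at percentiles 99.8, 98.6 and 99.8. In the other lists it measured 6539 bp in Ma_1007, 6479 bp in Ma_1181, 3960 bp in Ma_1014, 4345 bp in Ma_1039, 6540 bp in Ma_1062 and 5142 bp in Ma_1456. A second element inside Sec11c, chr18:65808743-65811613, which also lies at the start of the small transcript AC124578.1, was called in the 3 female ΔEcad lists and in Ma_1181 and Ma_1039. Ma_1064 had a further peak of 290 bp between the genes, and Ma_1069 one of 477 bp at the start of Cplx4, which encodes a complexin.

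Peaks covered 10.3 ± 1.62 kb (SD, n = 3) of the Grp window in female ΔEcad lines and 6.42 ± 1.86 kb (SD, n = 6) in the others. The groups overlapped, since Ma_1181 with 9.69 kb exceeded Ma_1064 with 8.44 kb. The difference of 3.89 kb had an exact two-sided permutation p of 0.0238, with an adjusted p of 0.123 over all 21938 genes, so it did not pass. It rested on Sec11c. With 50 kb on each side of Grp, which leaves that promoter out, the difference turned to -0.234 kb, with an exact permutation p of 1. The single peak left was that of 1405 bp in Ma_1181, so this value rests on 1 line and its p was fixed in advance.

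Nmb, the other ligand gene, was also without a peak of its own, in a window full of them. It lies on the minus strand at chr7:80902227-80905076, overlaps the end of Sec11a, and had no peak over its body in any list. The closest to its starts was the peak at the start of the neighbour Wdr73, 2.35 to 2.75 kb from the nearest Nmb start in 8 lists, and in Ma_1069, which lacked it, the nearest peak was 14.3 kb away. The Wdr73 peaks were 250 to 1465 bp wide, at percentiles 20.7 to 71.1.

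The Nmb window held 93 peaks in 14 elements, of which 5 were in all 9 lists. Further promoters carried marks, those of Iqgap1, a scaffold protein that binds cadherin complexes, of Zscan2 and Zfp592, which encode zinc finger proteins, and of Sec11a, the paralogue of Sec11c. A peak within 1 kb of a start was called in 9 lists for Iqgap1, Sec11a and Zfp592, in 6 for Zscan2, in 9 for the non-coding Gm44899 beside Zfp592 and in 3 for the transcript Gm44967. For Iqgap1 the peaks called in all 9 lists lay inside the gene, within chr7:80801261-80804340, at a start other than the outermost at 80825974. The strongest element was intergenic, chr7:80826916-80844406 upstream of Iqgap1, and in Ma_1007 alone it came within 1 kb of that outermost start. Its leading peak in each list was 7192 to 17319 bp wide, at percentiles 98.3 to 99.8. Sec11a also had a peak of 3137 bp inside its gene in the male ΔEcad line Ma_1456 alone.

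Peaks covered 18.6 ± 5.65 kb (SD, n = 3) of the Nmb window in female ΔEcad lines and 25.4 ± 4.76 kb (SD, n = 6) in the others. The values were 21.2 kb in Ma_1057, 22.6 kb in Ma_1064 and 12.2 kb in Ma_1069, and ran from 20.3 to 34.1 kb in the others, with a median of 24.0 kb. The groups overlapped, and the difference of -6.74 kb had an exact permutation p of 0.0952 (adjusted p = 0.256). Without Ma_1069 it was -3.50 kb.

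The receptor gene Nmbr had a peak at one of its annotated starts, and this start is shared. The annotation places Nmbr on the plus strand at chr10:14705591-14770850, with a group of starts that faces the start of Vta1, a gene of endosomal sorting on the minus strand that starts at 14705560. A peak there, within chr10:14704875-14705594, was called in 8 lists. It was 688 bp wide in Ma_1007, 659 bp in Ma_1181, 611 bp in Ma_1014, 322 bp in Ma_1039, 588 bp in Ma_1062, 573 bp in Ma_1456, 313 bp in Ma_1057 and 357 bp in Ma_1064, and Ma_1069 had none. All 8 summits lay on the Vta1 side, and the peaks stood at percentiles 4.87 to 55.8. Around the other group of Nmbr starts, the nearest peak was at least 54.6 kb away in every list. Which of the 2 genes the mark belongs to cannot be told apart from a peak list.

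Coverage of the Nmbr window was 0.223 ± 0.195 kb (SD, n = 3) in female ΔEcad lines and 0.574 ± 0.131 kb (SD, n = 6) in the others. The groups overlapped at Ma_1064, with 0.357 kb, and the female Ecad line Ma_1039, with 0.322 kb. The difference of -0.350 kb had an exact permutation p of 0.0238 (adjusted p = 0.123).

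Brs3 carried no peak, and its window held 1 element, which was missing from exactly the lines that marked Grpr. The gene lies on the plus strand at chrX:57043074-57048758. The element, chrX:57053022-57053783, was at the start of Htatsf1, which encodes a factor of transcription and splicing. It was 662 bp wide in Ma_1007, 690 bp in Ma_1181, 762 bp in Ma_1014, 523 bp in Ma_1039, 260 bp in Ma_1062 and 485 bp in Ma_1456, with fold enrichments of 7.64 to 17.3 at percentiles 34.0 to 70.2. In Ma_1057, Ma_1064 and Ma_1069 the window held no peak, and the nearest to the Brs3 start was 349.1 to 349.3 kb away.

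Coverage of the Brs3 window was therefore 0 kb in each female ΔEcad line and 0.564 ± 0.182 kb (SD, n = 6) in the others, and the groups did not overlap. The exact permutation p was 0.0119, the smallest that 84 splits of the lines allow, and the adjusted p was 0.0906. This was a frequent pattern, since 22.3% of all genes had a window covered less in every female ΔEcad line than in any other. Calls at the Htatsf1 start itself followed a rarer pattern, called in 6 of 6 other lists and in 0 of 3 female ΔEcad lists, which 533 of 21938 genes shared (2.43%). On the X chromosome 34 of 948 genes had it (3.59%), and on the autosomes 499 of 20807 (2.398%). Over all 948 X-linked genes, promoters were called for 9.49% to 13.4% in the female ΔEcad lists and for 16.6% to 27.8% in the others. These ranges did not overlap, and neither did those of all protein-coding genes (25.3% to 33.4% against 38.4% to 48.6%). The lower share was thus not limited to the X chromosome, and its part in the Htatsf1 calls was not tested.

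**Figure D2:**
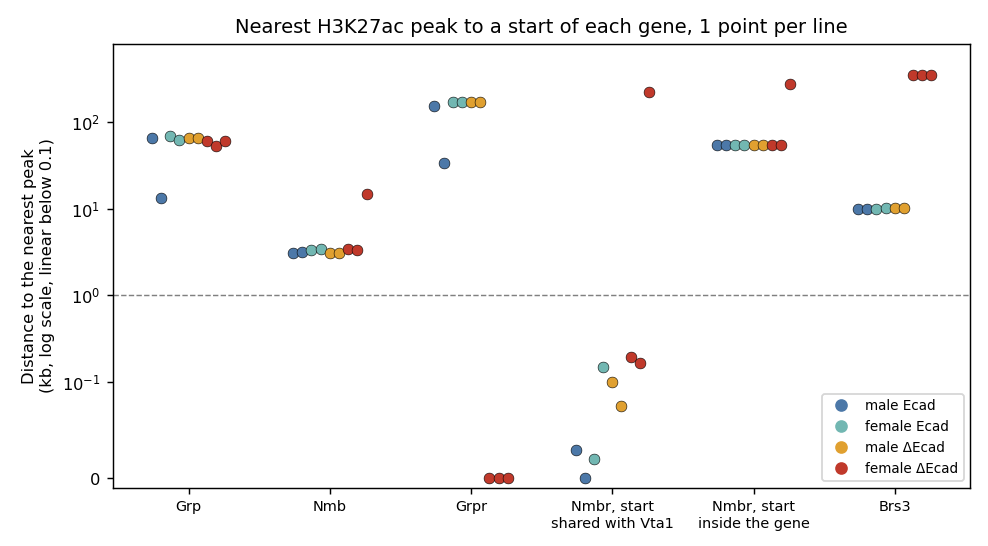
Distance in kb from a start of each gene to the nearest H3K27ac peak, with 1 point per line coloured by group, on a log axis that is linear below 0.1 kb. The dashed line marks 1 kb, within which a promoter was called, and Nmbr is shown at both groups of starts. Grpr is at 0 kb in the 3 female ΔEcad lines, and apart from it the start that Nmbr shares with Vta1 is alone in having points under the dashed line.

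Across the family, the promoter was called in 3 female ΔEcad lists and 0 others for Grpr, in 2 and 6 for Nmbr at the start shared with Vta1, and in 0 and 0 for Grp, Nmb and Brs3. For comparison, 47.1% of protein-coding genes were called in no list and 21.1% in all 9. Two-sided Fisher tests gave an exact p of 0.333 for Nmbr and 1 for Grp, Nmb and Brs3. With no call in any list for Grp, Nmb and Brs3, their p was fixed in advance and tests nothing. The Nmbr call and its test rest on the GENCODE annotation, since RefSeq places the start of Nmbr at 14759947, where 0 of 9 lists had a peak within 1 kb and the nearest was 54.4 kb away.

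By genotype alone or sex alone, 0 of these 4 genes passed. In the comparison of 5 ΔEcad with 4 Ecad lines, coverage differed by 2.17 kb for Grp (exact permutation p = 0.214), by -5.69 kb for Nmb (p = 0.167), by -0.204 kb for Nmbr (p = 0.190) and by -0.510 kb for Brs3 (p = 0.0159, adjusted p = 0.245). Between 5 female and 4 male lines the differences were 0.966 kb for Grp (exact permutation p = 0.619), -5.46 kb for Nmb (p = 0.198), -0.306 kb for Nmbr (p = 0.0317, adjusted p = 0.601) and -0.267 kb for Brs3 (p = 0.214). In each of the 3 contrasts, 0 of 21938 genes (0%) had an adjusted p under 0.05 by the exact permutation test. By the number of splits, the exact permutation p could not fall below 0.0119 (3 against 6 lines) or 0.00794 (5 against 4). An adjusted p under 0.05 thus needed many genes at that limit together, and little is read from these counts of 0. At an unadjusted p under 0.05 there were 5963 genes for female ΔEcad against the others, 3621 by genotype and 1739 by sex. For 75.7% of genes, mean coverage was lower in female ΔEcad lines than in the others, a direction that Nmb, Nmbr and Brs3 had and Grp did not.

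**Figure D3:**
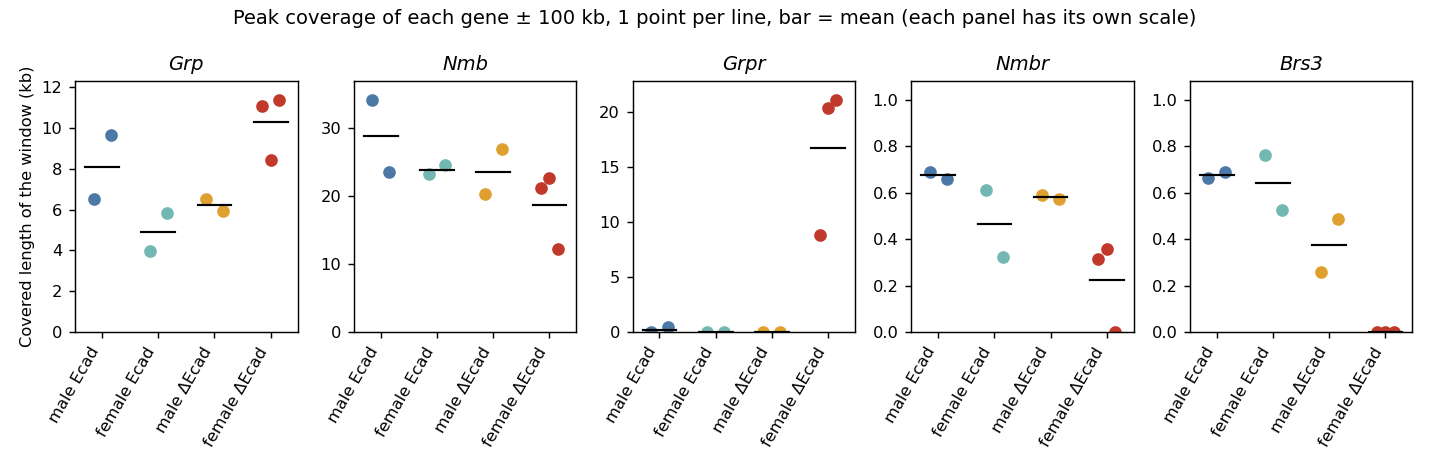
Covered length in kb of the window of each gene, with 1 point per line, grouped by sex and genotype, and the group mean as a bar. Each panel starts at 0 and has a scale of its own. Grpr lies at 0 to 0.422 kb in the other lines and at 8.81 to 21.1 kb in female ΔEcad lines, and Brs3 lies at 0 kb in the latter.

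The peaks over the Grpr start were wide beside the peaks of the other 4 windows. Of those, 10 were wider than the Grpr peak of Ma_1057, 1 than that of Ma_1064 and 0 than that of Ma_1069. The 10 lay upstream of Iqgap1, up to 17319 bp wide, and at Sec11c, up to 8308 bp. In the windows of Nmbr and Brs3 no peak exceeded 762 bp.

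**Figure D4:**
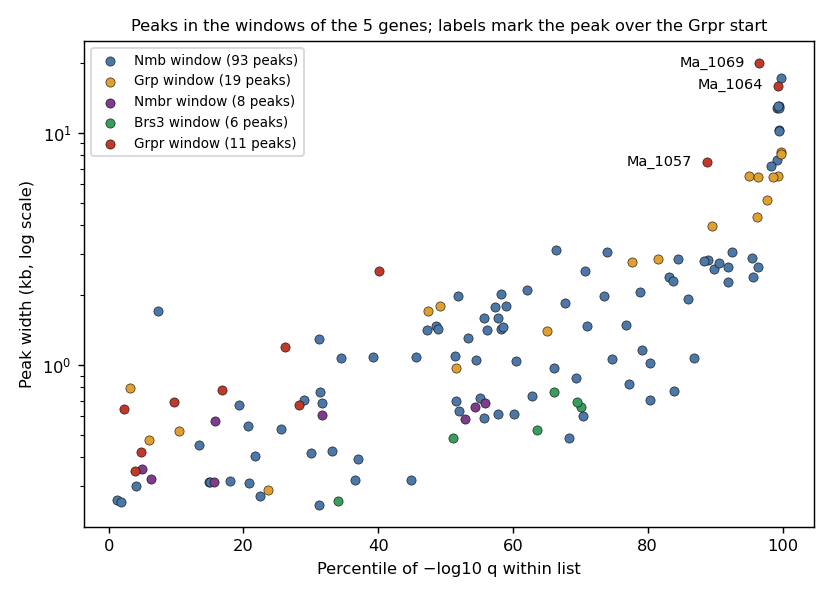
Peak width in kb (log axis) against the percentile of −log10 q within the list, for the 137 peaks of the 5 windows, coloured by window. The labelled points are the peaks over the Grpr start, which lie at the upper right, at 7.49 to 19.9 kb and percentiles 88.8 to 99.3. Those of Nmbr and Brs3 lie at or below 0.762 kb.

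Of the genes that act around the receptor, those for ligand processing were partly marked. Pam, which amidates the C terminus of such peptides, was called in 8 of 9 lists, all but Ma_1062. The prohormone convertase genes Pcsk1 and Pcsk2 were called in 0. Of the 5 genes of this list, 1 was called in all 9 lists, Cpe, and 3 in none, where all genes gave 21.1% and 47.1%.

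For the G proteins and their effectors, 5 of 15 genes were called in all 9 lists and 4 in none, against 21.1% and 47.1% of all genes. Gnaq, which encodes the α subunit of Gq, was among the former, and Gna12 among the latter. Gna11, which encodes the closely related α subunit of G11, was called in 6 of 6 other lists and in 0 of 3 female ΔEcad lists (Fisher's exact p = 0.0119, adjusted p = 0.486). The inositol trisphosphate receptor gene Itpr3 was called in 5 of 6 and 0 of 3 (exact p = 0.0476, adjusted p = 1). Itpr2, for a receptor of the same kind, went the other way, called in Ma_1064 and Ma_1069 and in 0 of 6 others (exact p = 0.0833). The share of all genes with the partial calls of Itpr3 and Itpr2, and of Grk2 and Kiss1r below, is not given here, so nothing is read from them. The protein kinase C gene Prkca was called in 4 of 6 and 0 of 3. Its calls were those of the 4 Ecad lists, a pattern that Arrb2 below shared and that 135 of 21938 genes had (0.615%), and it was not tested by genotype.

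Among 8 desensitisation genes, 2 were called in all 9 lists and 3 in none, near the 21.1% and 47.1% of all genes. Grk5, a receptor kinase gene, was one of the former, and Grk3 one of the latter. Grk6 had the pattern of Gna11, with 6 of 6 and 0 of 3 lists (exact p = 0.0119, adjusted p = 0.486). Grk2 and the arrestin gene Arrb2 were each called in 4 of 6 and 0 of 3.

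Of 32 other receptors for peptides or proteases that couple to Gq, 28 were called in no list, against 47.1% of all genes. Kiss1r, the kisspeptin receptor gene, was called in 6 of 6 other lists and in Ma_1057 alone of the female ΔEcad lists (exact p = 0.0833). The endothelin receptor genes Ednra and Ednrb were called in 1 list (Ma_1007) and in 3 lists (Ma_1181, Ma_1057 and Ma_1069), and the neurotensin receptor gene Ntsr1 in 0. In the 4 lists together, 0 of 60 genes had the pattern of Grpr (0.0182% of all genes) and 2, Gna11 and Grk6, had the reverse one (2.43% of all genes), close to what all genes give. The median difference in the share of lists called was 0 percentage points in each of the 4 lists and over all genes. By Fisher's exact test, 0 of 21938 genes (0%) had an adjusted p under 0.05 and 980 an unadjusted p under 0.05, of which 3 were in these lists. The smallest p that Fisher's test gave for 3 against 6 lists was 0.0119, so the count of 0 says little.

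**Figure D5:**
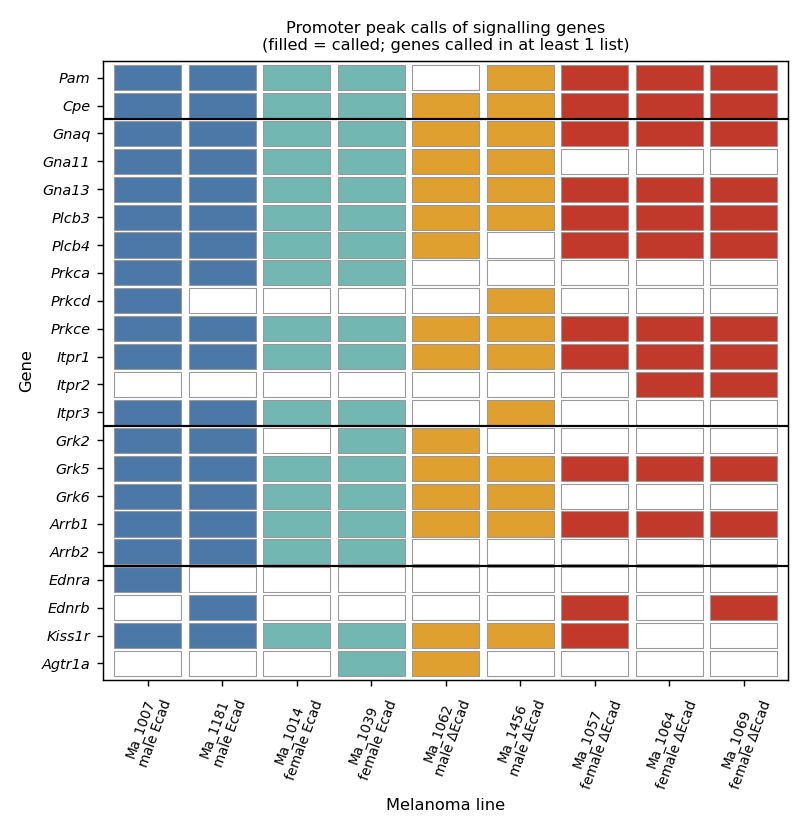
Promoter calls in each line for the 22 genes of the processing, G protein and effector, desensitisation and Gq receptor lists (separated by black lines) that were called in at least 1 list. A filled square is a call, coloured by group. Gna11 and Grk6 are filled in 6 of 6 other lines and empty in the 3 female ΔEcad lines, and Itpr2 is filled in Ma_1064 and Ma_1069 alone.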

How the data were processed

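H3K27ac was profiled by ChIP–seq in 9 mouse melanoma lines. The authors aligned reads to GRCm38 (mm10). The submitters' processing notes name Bowtie2 2.4.5, MACS2 2.2.7.1 and deepTools 3.5.1.0.0, and the peak caller's settings are not given in the sources used here. Each deposited list was made by the authors from 1 line and gave, per peak, a fold enrichment (a linear ratio), the −log10 p and −log10 q, a score and the summit offset. In at least 99.8% of peaks the deposited score repeats the −log10 q, multiplied by 10 and rounded down. The −log10 q was above 5 throughout, so an absent peak is not an absent mark. The 4 input libraries, 1 for each group of sex and genotype, were not analysed here. Which of them served as control for which list is not stated, and their part in the differences between groups was not tested. Peak lists hold no read counts, so depth is unknown.

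Gene bodies, starts and exons came from GENCODE M21 on the same build. Covered length was the number of base pairs, within a gene body and 100 kb on each side, that peaks overlap. It was compared by an exact permutation test over lines of the absolute difference between means (84 splits for 3 against 6 lines, 126 for 5 against 4), and promoter calls by Fisher's exact test, both two-sided with Benjamini-Hochberg adjustment over all 21938 protein-coding genes (Python 3.11.15, numpy 2.4.6, pandas 2.3.3, scipy 1.17.1). The scripts recovered known shifts in simulated data. Those shifts were far larger than the differences tested here and the values had no ties, so recovery of small differences was not checked. Groups follow the sex and genotype in the labels, and p-values measure the spread between lines. The 5 genes and the signalling lists were chosen with earlier results of these data known. The text names the 5 genes, neighbours with a marked start in a window, genes with the 9-list pattern of Grpr (up to 8), and, of the signalling lists, the first 3 genes of each and those with at least 60 percentage points between the shares of lists called. Cpe was named after its values were seen.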

Additional observations from a re-analysis of the deposited data

How the results depend on the processing

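The covered length was recomputed with 50 kb on each side, over the gene body alone, with the upper 50% of each list by −log10 q, with lists cut to the 20741 strongest peaks, and without each line in turn. The Grpr difference stayed within 1 SD of the female ΔEcad lines, from 14.5 to 20.7 kb. Grpr was picked for this contrast and the other lines hold almost no peaks in its window, so nothing is read from this. Grp turned from 3.89 kb to -0.234 kb with 50 kb on each side and to -0.099 kb over the gene body, both with an exact permutation p of 1. Both values came from 1 peak in Ma_1181, which fixed that p in advance. Over the gene body the differences of Nmb and Brs3 were 0 kb and that of Nmbr was -0.000667 kb (exact permutation p of 1), and with 50 kb on each side that of Nmb shrank to -2.13 kb (exact permutation p of 0.286). The p of 1 was fixed in advance, since peaks touched the Nmbr body in Ma_1181 alone and the bodies of Nmb and Brs3 in no line. The other differences of Nmb, Nmbr and Brs3 kept their sign. No alternative brought an adjusted p under 0.05, which the few splits of the lines leave hard to reach, so nothing is read from it. Leaving out a line lowers the number of splits further. Leaving out a line gave 3.34 to 4.82 kb for Grp, -8.72 to -3.50 kb for Nmb, -0.417 to -0.239 kb for Nmbr and -0.624 to -0.524 kb for Brs3. The number of genes with the promoter pattern of Grpr was 4, and it was 2 for a peak over the start itself, 6 within 5 kb, 9 in the upper 50% of each list, 8 in lists of equal length and 4 to 21 when a line was left out. Grpr was among them each time. When a line was left out this was fixed in advance, and since Grpr was picked for this pattern nothing is read from it. The cause of these shifts was not tested. No paired analysis was possible because replicates were numbered in order of deposition and the numbers do not pair lines. Since the depth of the libraries is unknown, a missing peak limits every count of calls above.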
